A study of Mus musculus with 12 samples.

Results

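The genes described here are 10 members of arginine metabolism, measured by RNA-Seq in 12 mouse 4T1 tumours. They are the arginases Arg1 and Arg2, the inducible nitric oxide synthase Nos2, the citrulline recycling enzymes Ass1 and Asl, the ornithine-consuming enzymes Odc1, Oat and (one step later) Srm, and the arginine transporters Slc7a1 and Slc7a2. They were chosen by name from the pathway, with earlier results of these data known, and the rule itself uses no measured value. They are 10 of 35944 annotated genes with a value, and all 10 passed the filter of at least 10 reads in at least 3 libraries, as did 15459 genes in all.

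4T1 cells are a transplantable line of mouse mammary carcinoma. Female BALB/c mice of 6 to 8 weeks received 100000 4T1 cells under the skin of the right flank, and from day 5 they were injected beside the tumour with 3 µg of extracellular vesicles (EVs) every 2 days until the tumours were taken on day 21. The EVs came from the mouse endothelial cell line MS-1 and had been electroporated with a miRNA mimic, so that every group, controls included, received loaded EVs and no untreated tumour was among the samples. The groups, named for the mimic, were ctrl (cel-miR-67, a nematode miRNA without a mouse counterpart), the miR-142-5p group, the miR-183-5p group and the miR-222-3p group, with 3 tumours each and 1 library per tumour.

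Arginine is the shared substrate of competing enzymes. Arginases cut it to ornithine and urea, and ornithine then feeds polyamine synthesis through Odc1 or proline synthesis through Oat. Nitric oxide synthases oxidise it to nitric oxide and citrulline, which Ass1 and Asl turn back into arginine. In macrophages, Nos2 is a classical marker of inflammatory (M1-like) and Arg1 of alternative (M2-like) activation, and tumour cells, neutrophils and fibroblasts can express several of these genes as well.

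The mature mouse miRNAs after which the mimics were named are shown first, because they define the groups. A miRNA pairs with 3′ UTRs mainly through its seed, bases 2 to 8, which stands in capitals below. The 3 mature mouse sequences are those of RefSeq on GRCm38.p6, and the injected mimics were double-stranded, are not shown, and may differ from these sequences, for example in length at the 3′ end.
miR-142-5p (chr11:87756867-87756887, + strand): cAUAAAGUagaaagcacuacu
miR-183-5p (chr6:30169711-30169732, - strand): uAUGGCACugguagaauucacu
miR-222-3p (chrX:19146901-19146923, - strand): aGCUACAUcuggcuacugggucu
No 2 of these miRNAs share a seed.

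Matches were about as frequent in the 10 genes as in all genes, at 2 of 10 for miR-142-5p, 1 of 10 for miR-183-5p and 1 of 10 for miR-222-3p. The 3′ UTR of the most abundant coding transcript of each gene was searched on its own strand for ACTTTATA, ACTTTAT and CTTTATA (miR-142-5p), for GTGCCATA, GTGCCAT and TGCCATA (miR-183-5p) and for ATGTAGCA, ATGTAGC and TGTAGCA (miR-222-3p), which are in each case the 8mer, the 7mer-m8 and the 7mer-A1, a longer match being counted once. Slc7a2 and Arg1 held a match to miR-142-5p, Slc7a1 held one to miR-183-5p and Slc7a2 held matches to miR-222-3p. Among the 14532 tested genes with a 3′ UTR, 21.2% held a match to miR-142-5p, 14.7% to miR-183-5p and 16.0% to miR-222-3p. No 8mer was present in the 10 genes, and Nos2, with a 3′ UTR of 502 bases, held no match of any kind. A 7mer-m8 or 8mer was held by 0, 0 and 1 of the 10 genes for the 3 miRNAs in that order. Among the 14532 genes the shares were 14.2%, 9.32% and 9.59%. The site in Arg1 and the stronger (7mer-m8) sites in Slc7a2 are printed with the flanking bases in lower case and the match in capitals.
Arg1, 7mer-A1 for miR-142-5p, chr10:24915221-24915243, - strand: ataataaactCTTTATAataaaa
Slc7a2, 7mer-m8 for miR-222-3p, chr8:40917767-40917793, + strand: ggttctttctATGTAGCcctggaactc
Slc7a2, 7mer-m8 for miR-222-3p, chr8:40920976-40921002, + strand: gctgaaattcATGTAGCcagtaatgcc
The match in Arg1 began at base 377 of a 3′ UTR of 389 bases, which places it at the very end of the annotated transcript. The matches in Slc7a2 began at bases 1243 and 4452 of 5536. Slc7a2 also held 7mer-A1 matches to miR-142-5p at bases 1550 and 5490. A match is a string of letters and was not tested as a site of repression.

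The depth was similar in all libraries, at 20285968 to 27021401 estimated reads. The 5 carcinoma markers summed to 1265 to 1855 TPM, from Krt18 at 632 to 1046 TPM down to Krt19 at 0.870 to 10.4 TPM, and the 8 macrophage markers ranged from C1qa at 397 to 1098 TPM down to Mertk at 4.05 to 9.81 TPM. TPM is an abundance scaled to a fixed library total, a level per unit of transcript length that can be compared between genes. In such bulk samples, fewer cells of a type and less RNA per cell cannot be told apart. A pair of libraries stood apart. Tumour 3 of miR-142-5p carried B cell markers (summed 275 TPM, against at most 1.91 elsewhere) and the highest T cell markers (88.8 TPM), while tumour 3 of miR-183-5p carried skeletal muscle markers (169 TPM, against at most 1.57 elsewhere). The libraries also fell into 2 sets by the share of mt-Co2-like reads assigned to the pseudogene Gm28661, which was under 1% in the 3 miR-222-3p libraries and in miR-183-5p tumour 3 and between 7.13% and 41.8% in the other 8. This split and the miR-222-3p group cannot be told apart. P-values of the comparisons rest on the spread between tumours within groups, with 1 estimate per gene shared by all groups in the main fit. The labels do not say more about how the replicates were raised.

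Arg1 was the most abundant of the 10 transcripts and Slc7a2 the least. Arg1 (ENSMUSG00000019987, chromosome 10, positions 24915221 to 24927484), the cytosolic arginase, had a mean level of 406 TPM over the 12 tumours (range 326 to 725), higher than 97.8% of tested genes. Odc1 (chromosome 12, positions 17544794 to 17551505), the rate-limiting enzyme of polyamine synthesis, followed at 209 TPM (150 to 330). Then came Ass1, argininosuccinate synthase, at 70.0 TPM (36.9 to 105), Srm, spermidine synthase, at 69.4 TPM (51.3 to 87.8), Oat, the mitochondrial ornithine aminotransferase, at 53.4 TPM (47.1 to 61.7), and Asl, argininosuccinate lyase, at 46.3 TPM (43.1 to 49.7). The mitochondrial arginase Arg2 was at 40.9 TPM (30.1 to 53.4) and Nos2 (ENSMUSG00000020826, chromosome 11, positions 78920787 to 78960254) at 36.7 TPM (9.28 to 72.1). The transporters were lowest, with Slc7a1, the widely expressed cationic amino acid transporter CAT1, at 12.4 TPM (9.98 to 15.2) and Slc7a2, the transporter CAT2 that is induced with Nos2 and Arg1 in activated macrophages, at 2.06 TPM (1.43 to 3.31).

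Only some steps in this order were wider than the spread between tumours. The ranges of Odc1 and Ass1 did not overlap, nor did those of Slc7a1 and Slc7a2. Arg1 exceeded Odc1 in 12 of 12 tumours, although the lowest Arg1 level (326 TPM) was just under the highest Odc1 level (330 TPM). Ass1 exceeded Srm in 6 of 12 tumours and Arg2 exceeded Nos2 in 6 of 12, so that these neighbours had no order. Asl exceeded Arg2 in 9 of 12, Oat exceeded Asl in 11 of 12 and Nos2 exceeded Slc7a1 in 11 of 12.

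**Figure D1:**
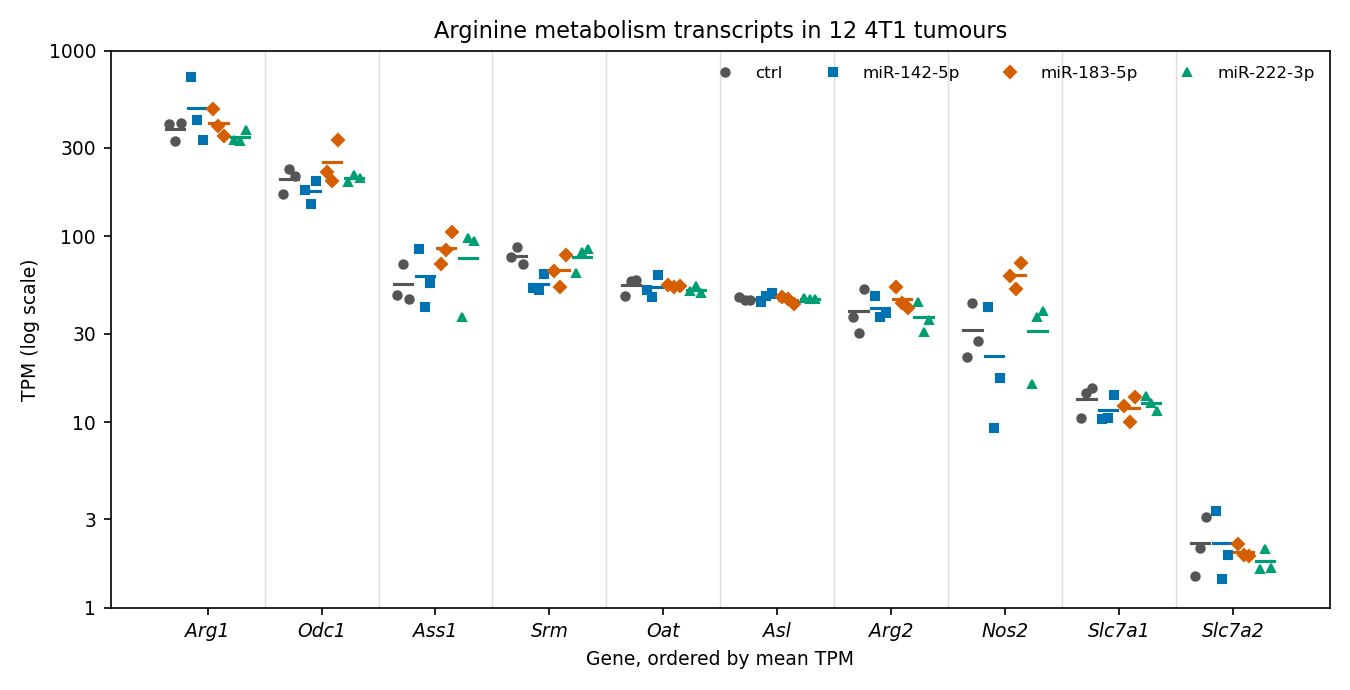
TPM (log scale) of the 10 genes in each of the 12 tumours, ordered by mean level, where each symbol is 1 tumour and each short line the mean of 3. Arg1 lies at 326 to 725 TPM and Slc7a2 at 1.43 to 3.31 TPM, and Nos2 shows the widest spread, with its 3 miR-183-5p tumours on top at 52.2 to 72.1 TPM.

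Most of each gene's level came from 1 annotated transcript. Arg1-201 held 92.8% to 96.5% of the Arg1 level, Nos2-201 held 94.1% to 100% of Nos2, Ass1-201 held 95.1% to 98.6% and Slc7a1-201 held 92.8% to 98.8%. Odc1 was more mixed. Its coding transcript Odc1-201 held 68.8% to 80.8% and Odc1-205, annotated as a substrate of nonsense-mediated decay, held 9.49% to 15.8%. Slc7a2-203, which carries the seed matches given above, held 49.1% (miR-222-3p tumour 1) to 95.2% (ctrl tumour 1) of Slc7a2. Asl was split, with Asl-205 at 37.8% to 62.9%. Close copies took few reads, at most 0.193% of the summed reads for the Ass1 pseudogene Gm5424 and at most 0.637% for the Odc1 pseudogene Gm17709. Arg2 overlaps the end of Vti1b on the opposite strand over 285 bases. Whether reads were counted by strand is not given in the sources used here, so the Arg2 level is uncertain to that extent.

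Variation between tumours differed widely between the genes. The coefficient of variation (CV, SD over mean) of the normalised count, a read count adjusted for depth and transcript length that compares 1 gene between tumours, was 53.0% for Nos2, higher than in 98.2% of 11542 genes with a mean of at least 100. It was 35.8% for Ass1, 31.3% for Arg1 and 29.3% for Slc7a2, against a median of 13.0% over those genes. Odc1 (21.2%), Srm (19.9%) and Arg2 (18.5%) were in between. Slc7a1 (10.6%), Oat (5.90%) and Asl (5.59%) were below the median, and only 2.30% of the genes had a lower CV than Asl. The highest and lowest Nos2 counts were 7.77-fold apart.

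To ask whether these transcripts differed between tumours given miRNA-loaded EVs and those given ctrl EVs, each miRNA group was compared with ctrl. This used 1 DESeq2 fit over all 12 libraries (Wald test, Benjamini-Hochberg adjustment over all genes, threshold 0.05). None of the 10 genes was called in any of the 3 comparisons, nor by edgeR's quasi-likelihood test. Calls were rare among all 15413 genes with an adjusted p-value as well, at 0.00649% with miR-142-5p, 0% with miR-183-5p and 0.026% with miR-222-3p EVs. At an unadjusted p-value under 0.05, the DESeq2 fit held 1 of 10 genes in the miR-142-5p tumours (Srm), 0 in the miR-183-5p group and 0 in the miR-222-3p tumours, where all genes gave 3.56%, 3.22% and 2.29%. The median log2 fold change over the 10 genes was 0.02, 0.07 and -0.05, beside -0.00500, -0.0110 and -0.00781 over all genes. No overlap with ctrl was seen for 0 of 10 genes in miR-222-3p, where 5.5% of all genes showed none. The 3 comparisons share the same ctrl tumours.

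**Figure D2:**
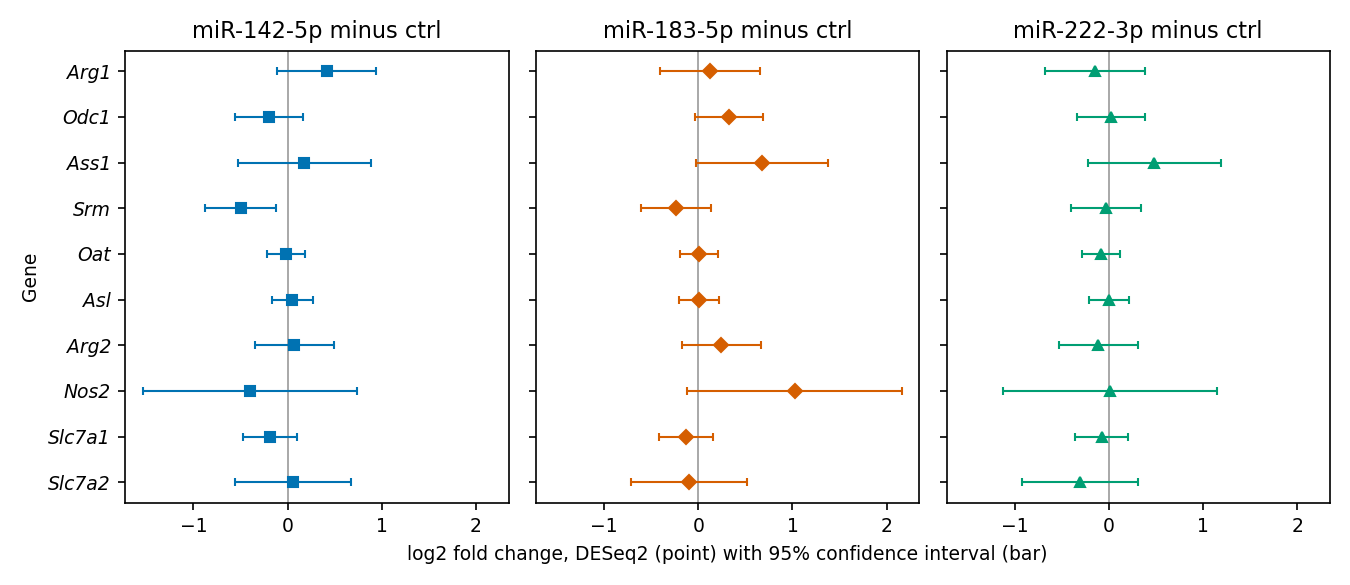
The log2 fold change of each of the 10 genes (point, DESeq2) with its 95% confidence interval (bar), for each miRNA group minus ctrl. The intervals cover 0 for each gene except Srm in miR-142-5p, from -0.87 to -0.13, and are widest for Nos2.

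Arg1 varied within the miR-142-5p group more than between groups. Its level was 401, 328 and 409 TPM in ctrl tumours 1 to 3 and 725, 424 and 331 TPM in the miR-142-5p tumours. It was 488, 391 and 347 TPM in the miR-183-5p group and 330, 326 and 375 TPM in the miR-222-3p tumours. Tumour 1 of miR-142-5p held by far the highest level of the series, and each miRNA group overlapped ctrl. The log2 fold change of Arg1 was 0.41 (SE 0.27, 95% confidence interval -0.11 to 0.94) for miR-142-5p, 0.12 (SE 0.27, -0.40 to 0.65) for miR-183-5p and -0.15 (SE 0.27, -0.67 to 0.38) for miR-222-3p. Without tumour 1 the miR-142-5p value was -0.038, and without its own tumour 1 the miR-183-5p value was -0.0050, so that both directions rested on 1 tumour.

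Neither Arg2 nor the recycling enzyme Asl passed in any group. Arg2 was 36.8, 30.1 and 52.2 TPM in ctrl, 47.7, 36.7 and 38.6 TPM with miR-142-5p, 53.4, 43.7 and 41.3 TPM with miR-183-5p EVs and 44.5, 30.4 and 35.6 TPM in miR-222-3p. The groups overlapped ctrl, and the largest change was 0.25 (SE 0.21) in miR-183-5p, or 0.11 with the reads of Vti1b, which overlaps it, added. Asl kept to 43.1 to 49.7 TPM in the 12 tumours, and its 95% intervals against ctrl lay within -0.21 and 0.26 on the log2 scale.

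Nos2 had the largest difference from ctrl. Its level was 22.5, 43.6 and 27.4 TPM in ctrl and 61.6, 52.2 and 72.1 TPM in miR-183-5p. It was 41.6, 9.28 and 17.4 TPM in miR-142-5p and 16.0, 36.9 and 39.5 TPM in miR-222-3p. The 3 miR-183-5p tumours were the 3 highest of the series and did not overlap any other group. The log2 fold change of Nos2 in miR-183-5p was 1.02 (SE 0.58, 95% confidence interval -0.12 to 2.16), which did not pass (DESeq2, adjusted p = 0.9998). With only these 2 groups in the fit, so that the spread of the miR-142-5p and miR-222-3p tumours did not enter, it was 1.03 and passed (DESeq2, Benjamini-Hochberg adjusted p = 0.0039). The share of all genes that passed in that fit was not computed. The changes in miR-142-5p (-0.40, SE 0.58) and miR-222-3p (0.01, SE 0.58) did not pass either, and the former was -1.26 without miR-142-5p tumour 1 (DESeq2, adjusted p = 0.0971), while the latter was -0.25 without miR-222-3p tumour 3.

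Ass1, which rebuilds arginine from the citrulline that nitric oxide synthases release, was higher in each miR-183-5p tumour than in each ctrl tumour by normalised count, but by a narrow margin. In TPM it was 48.5, 71.4 and 46.0 in ctrl and 71.4, 84.7 and 105 in miR-183-5p. In the remaining groups it was 85.7, 41.9 and 56.2 TPM (miR-142-5p) and 36.9, 97.7 and 94.3 TPM (miR-222-3p). The lowest miR-183-5p count, 1713, stood just above the highest ctrl count, 1681. The log2 fold change was 0.68 (SE 0.36, 95% confidence interval -0.02 to 1.38, DESeq2 adjusted p = 0.9998). Nos2 and Ass1 were thus 2 of 10 genes whose groups did not overlap in this comparison, both higher, where 9.17% of all genes showed no overlap.

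In the polyamine branch, Odc1 leaned in opposite directions in miR-142-5p and miR-183-5p. Its level was 168, 231 and 212 TPM in ctrl, 178, 150 and 200 TPM with miR-142-5p, 223, 200 and 330 TPM with miR-183-5p EVs and 197, 215 and 207 TPM in miR-222-3p. Tumour 3 of miR-183-5p, the library with muscle markers, was far above the rest. The log2 fold change was 0.33 (SE 0.18) in miR-183-5p, or 0.08 without that tumour, and -0.20 (SE 0.18) in miR-142-5p (DESeq2, adjusted p = 0.9998 and 1).

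Srm, the enzyme that makes spermidine from the product of Odc1, was the only one of the 10 genes lower in each miR-142-5p tumour than in each ctrl tumour. It was 77.6, 87.8 and 71.2 TPM in ctrl and 52.6, 51.3 and 63.1 TPM in miR-142-5p. It was 65.2, 53.3 and 79.7 TPM in miR-183-5p and 63.4, 82.2 and 85.9 TPM in miR-222-3p. The log2 fold change in miR-142-5p was -0.50 (SE 0.19, 95% confidence interval -0.87 to -0.13), with an unadjusted p of 0.0088 and an adjusted p of 0.999 (DESeq2). No overlap was seen for 1 of 10 genes here and for 6.07% of all genes. Oat, which sends ornithine towards proline, was nearly level, at 47.1 to 61.7 TPM, with 95% intervals within -0.28 and 0.21 against ctrl.

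Neither transporter passed against ctrl, and each overlapped it in each group. Slc7a1 was 10.6, 14.3 and 15.2 TPM in ctrl and 10.4, 10.5 and 14.0 TPM in miR-142-5p, with a log2 fold change of -0.18 (SE 0.15). It was 12.2, 9.98 and 13.6 TPM in miR-183-5p, the group of the miRNA for which it holds a match, with a change of -0.13 (SE 0.15), and 13.9, 12.7 and 11.4 TPM in miR-222-3p. Slc7a2 was 1.48, 2.10 and 3.08 TPM in ctrl, 3.31, 1.43 and 1.93 TPM with miR-142-5p, 2.20, 1.92 and 1.90 TPM with miR-183-5p EVs and 1.62, 2.08 and 1.63 TPM in miR-222-3p. In miR-222-3p, whose 7mer-m8 matches it holds, the change was -0.30 (SE 0.31, 95% confidence interval -0.92 to 0.31), and in miR-142-5p it was 0.05 (SE 0.31), or -0.42 without miR-142-5p tumour 1. Its reads numbered 157 to 393 per library, the fewest of the 10 genes.

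Between the miRNA groups, the widest difference was that of Nos2 between miR-183-5p and miR-142-5p tumours. Nos2 was higher in each miR-183-5p tumour than in each miR-142-5p tumour, by 1.42 (SE 0.58, unadjusted p = 0.0143, adjusted p = 0.432, DESeq2). Odc1 was higher by 0.53 (SE 0.18, unadjusted p = 0.00423, adjusted p = 0.271, DESeq2), without overlap by normalised count. In TPM, Odc1 overlapped (199.6 in miR-183-5p tumour 2, 199.8 in miR-142-5p tumour 3). These were 2 of 10 genes with no overlap by normalised count, beside 12.3% of all genes, and 2 of 10 with an unadjusted p under 0.05, beside 7.95%. None of the 10 was called, where 0.0519% of all genes were. Nos2 was called without miR-142-5p tumour 1, whose Nos2 level was the highest of its group, with a change of 2.29 (DESeq2, adjusted p = 6.6e-06). For that fit, too, the share of all genes called was not computed. Without the libraries with B cell and muscle markers the changes were 1.09 for Nos2 and 0.32 for Odc1, and neither passed.

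By normalised count, the miR-183-5p tumours were higher than miR-222-3p without overlap in Nos2 (1.01, SE 0.58), Arg2 (0.36, SE 0.21) and Oat (0.09, SE 0.10). These were 3 of 10 genes, where all genes gave 9.06%. The Arg2 margin was narrow (853 against 849). In TPM, Arg2 overlapped (41.3 in miR-183-5p tumour 3, 44.5 in miR-222-3p tumour 1), and so did Oat (53.3 in miR-183-5p tumour 2, 54.0 in miR-222-3p tumour 2). None of the 10 was called or had an unadjusted p under 0.05 (0.0324% of all genes were called by DESeq2). Against miR-222-3p, the miR-142-5p tumours had lower Srm without overlap (-0.47, SE 0.19, unadjusted p = 0.0138) and higher Arg1 with overlap (0.56, SE 0.27, unadjusted p = 0.0374), and none of the 10 was called where 0.0389% of all genes were (DESeq2). Without overlap stood 1 of 10 genes, beside 6.2% of all. Without miR-142-5p tumour 1 the Arg1 difference was 0.11.

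The balance between the enzymes that compete for arginine was described by the ratio of the Arg1 level to the Nos2 level in each tumour, without a test because it is a score over 2 of the genes. Arg1 exceeded Nos2 in 12 of 12 tumours. The ratio of the TPM values was 17.8, 7.53 and 14.9 in ctrl, 17.4, 45.6 and 19.02 with miR-142-5p, 7.92, 7.50 and 4.81 with miR-183-5p EVs and 20.6, 8.85 and 9.49 in miR-222-3p. The mean log2 ratio was 3.65 ± 0.66 (SD, n = 3) in ctrl, 4.63 ± 0.77 with miR-142-5p, 2.72 ± 0.39 with miR-183-5p EVs and 3.59 ± 0.68 with miR-222-3p EVs. The miR-142-5p and the miR-183-5p tumours did not overlap. The miR-183-5p tumours overlapped ctrl, because ctrl tumour 2 had a log2 ratio of 2.91 and the highest of miR-183-5p was 2.98. The highest ratio belonged to miR-142-5p tumour 2, which had the lowest Nos2 level of the series.

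**Figure D3:**
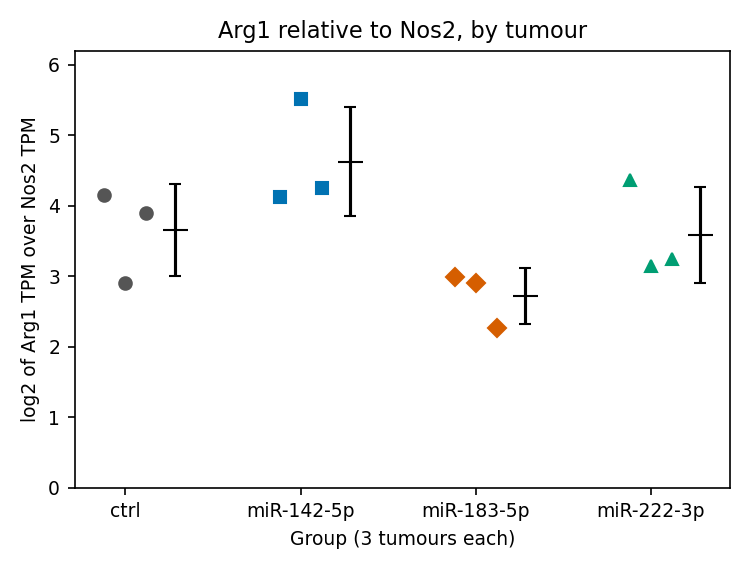
The log2 ratio of Arg1 TPM to Nos2 TPM in each tumour (symbols), with the mean and SD of each group of 3 (black). The miR-183-5p tumours lie at 2.27 to 2.98 and the miR-142-5p tumours at 4.12 to 5.51.

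Which of the genes varied together was examined across the 12 tumours, for 45 pairs, on log2(normalised count + 1). Nos2 rose and fell with Ass1 and with Odc1. For Nos2 and Ass1, Pearson's r was 0.83 (permutation p = 0.00094, adjusted over the 45 pairs 0.0216) and Spearman's rho 0.77 (adjusted permutation p = 0.0784). For Nos2 and Odc1, r was 0.80 (permutation p = 0.00096, adjusted 0.0216) and rho 0.83 (adjusted permutation p = 0.0412). Both kept their direction without the tumours farthest from the median Nos2 count, miR-142-5p tumour 2 and miR-222-3p tumour 1 (r = 0.75 and 0.70), and among deviations from the group means (r = 0.90 and 0.61). The adjusted p no longer passed for either pair without those tumours (permutation, 0.145 and 0.183), and among deviations from the group means it passed for Ass1 (permutation, 0.0027) and not for Odc1 (permutation, 0.158). The permutation of these deviations ran across groups and did not allow for the group means removed, so both of the latter p-values can be too small. Within the larger library set of 8, r was 0.83 and 0.87.

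No relation of Arg1 to Nos2 passed. Their r was 0.24 (permutation p = 0.468, adjusted 0.703, rho 0.32, permutation p = 0.309, adjusted 0.581) and 0.02 without miR-142-5p tumour 1 and miR-222-3p tumour 1. Arg1 and Arg2 had r = 0.64 (adjusted permutation p = 0.192, rho 0.59 with adjusted permutation p = 0.244). Asl and Slc7a1 went opposite ways by count (r = -0.81, adjusted permutation p = 0.0270, rho -0.83, adjusted permutation p = 0.0412), but on log2(TPM + 1) r was -0.14, so that this relation depended on the scale. In all, 3 of the 45 pairs passed by r, 2 of them also by rho.

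The genes most like Arg1 and Nos2 were found by ranking 11541 genes with a mean normalised count of at least 100 by r over the 12 tumours, as a description. For Arg1 these were the small GTPase gene Rit1 (r = 0.87), the ubiquitin ligase Wwp2 (0.86), the histone H3.3 gene H3f3b (0.85), Commd10 (0.85) and the proteasome subunit Psmb6 (0.84). For Nos2 they were Hs6st2, which sulfates heparan sulfate (r = 0.96), the collagen-crosslinking lysyl oxidase Lox (0.95), Fam110c (0.95), the glycosyltransferase Gcnt2 (0.95) and the orphan receptor Gpr176 (0.95). The likeness around Nos2 was closer than that around Arg1. Ddah1, which degrades the methylated arginines that inhibit nitric oxide synthases, ranked 52nd for Nos2 (r = 0.91), Ass1 ranked 214th and Odc1 327th.

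Because several cell types make these transcripts, the 10 genes were set against lists of cell type markers, each scored as the mean log2(normalised count + 1) of its genes. These 70 relations were added after the data were seen. Nos2 was higher in tumours with more fibroblast marker RNA (r = 0.85, adjusted permutation p = 0.0133, rho 0.83, adjusted permutation p = 0.0262) and lower in tumours with more macrophage marker RNA (r = -0.83, adjusted permutation p = 0.0133, rho -0.80, adjusted permutation p = 0.0307). Ass1 and Odc1 did the same. For Ass1, r was 0.86 with fibroblast markers (adjusted permutation p = 0.0133) and -0.77 with macrophage markers (adjusted permutation p = 0.0301), and for Odc1 it was 0.73 (adjusted permutation p = 0.0430) and -0.92 (adjusted permutation p = 0.00490). Their rho values were 0.90 and -0.85 for Ass1 (adjusted permutation p = 0.0133 and 0.0203) and 0.83 and -0.86 for Odc1 (adjusted permutation p = 0.0240 and 0.0203).

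Arg2 went with the neutrophil markers (r = 0.78, adjusted permutation p = 0.0321, rho 0.80, adjusted permutation p = 0.0308). This relation was not computed with the reads of the overlapping Vti1b added, so the uncertainty of the Arg2 level applies to it. Ass1 also went with the carcinoma markers by r (0.79, adjusted permutation p = 0.0301) and not by rho (0.71, adjusted permutation p = 0.111). In all, 8 of the 70 passed by r and 7 by both measures. Most of these joined Nos2, Ass1 or Odc1 with the fibroblast or macrophage list. They are not independent relations, since Nos2 varied with Ass1 and Odc1. How the lists varied with each other was not tested, and the share of all genes that would pass was not computed. No relation of Arg1 to the macrophage markers passed (r = 0.18, adjusted permutation p = 0.836, rho 0.04, adjusted permutation p = 0.973). Without the 2 farthest tumours, r was 0.73 and -0.69 for Nos2 with the fibroblast and macrophage lists, 0.83 and -0.66 for Ass1, 0.75 and -0.79 for Odc1, and 0.60 for Arg2 with the neutrophil list. Without the libraries with B cell and muscle markers, r was 0.85 and -0.87 for Nos2, 0.84 and -0.76 for Ass1, 0.83 and -0.89 for Odc1 and 0.80 for Arg2. Among deviations from the group means, r was 0.89 and -0.68 for Nos2 and 0.84 and -0.74 for Ass1. It was 0.62 and -0.87 for Odc1 and 0.83 for Arg2.

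**Figure D4:**
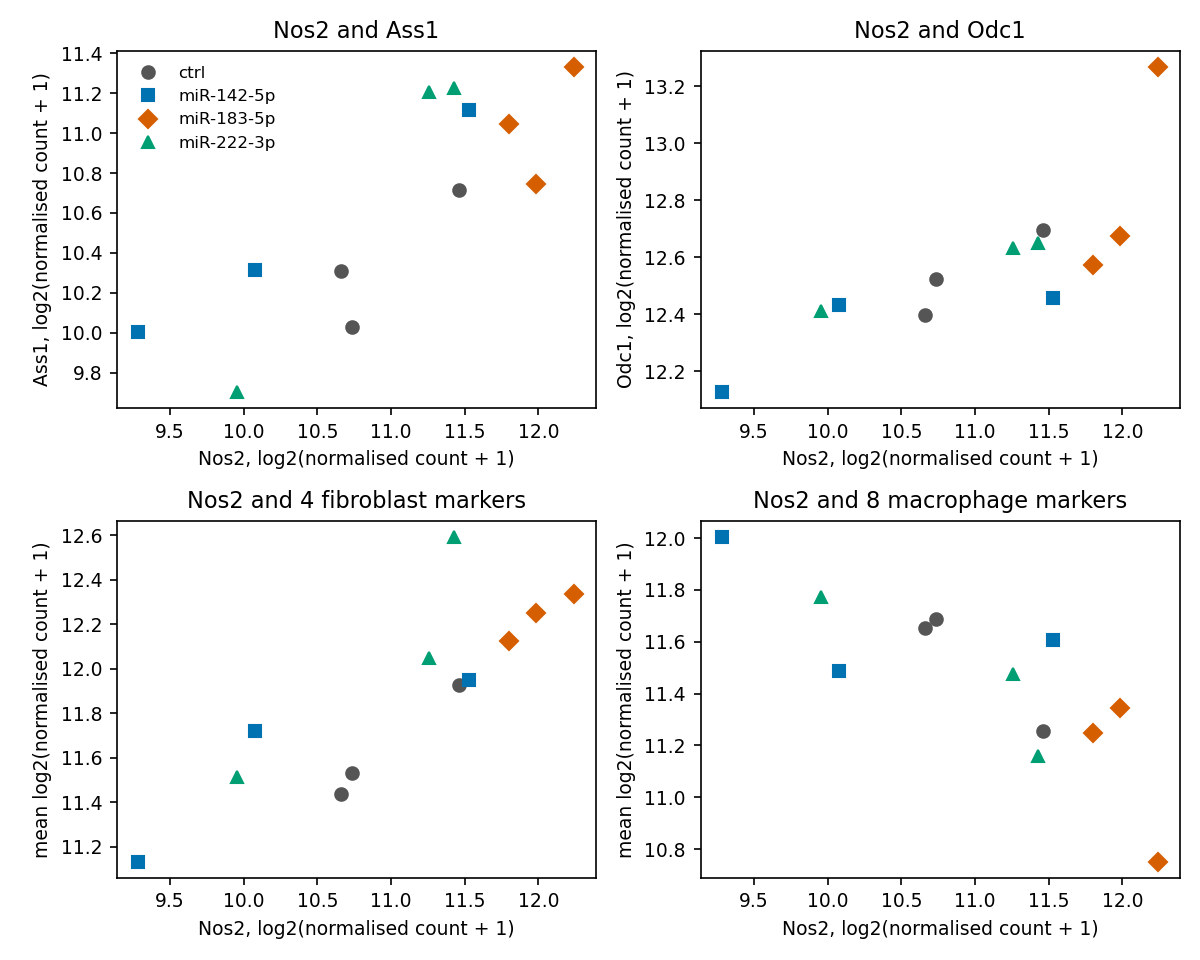
Nos2 against Ass1, Odc1, the mean of 4 fibroblast markers and the mean of 8 macrophage markers, all as log2(normalised count + 1), with 1 symbol per tumour. The first 3 panels rise (r = 0.83, 0.80 and 0.85) and the last falls (r = -0.83), with miR-142-5p tumour 2 and miR-222-3p tumour 1 at the low end of Nos2 and the miR-183-5p tumours at the high end.

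The summed macrophage and fibroblast markers also differed between the miR-183-5p and ctrl tumours. The 8 macrophage markers summed to 1728 to 2185 TPM in ctrl, 1857 to 2718 TPM in miR-142-5p, 1134 to 1714 TPM in miR-183-5p and 1526 to 2278 TPM in miR-222-3p. The 4 fibroblast markers summed to 261 to 559 TPM in ctrl and 563 to 749 TPM in miR-183-5p, with 172 to 523 TPM in miR-142-5p and 238 to 904 TPM in miR-222-3p. The 7 neutrophil markers summed to 1053 to 2017 TPM in ctrl and 1884 to 3048 TPM in miR-183-5p, which overlapped. They summed to 1022 to 1663 TPM in miR-142-5p and 884 to 2014 TPM in miR-222-3p. The sums of the remaining lists in miR-183-5p overlapped ctrl too. A sum follows its most abundant genes, such as C1qa (mean 728 TPM), Col1a2 (mean 228 TPM) and S100a9 (mean 1025 TPM). The miR-183-5p tumours, highest in Nos2, were thus below ctrl in summed macrophage markers and above it in summed fibroblast markers without overlap, by narrow margins. On the mean log2 score used for the correlations, the fibroblast lists did not overlap either (at least 12.13 against at most 11.93), but the macrophage lists did, with miR-183-5p tumour 1 at 11.34 and ctrl tumour 2 at 11.26. The part of these cell types in the Nos2 and Ass1 levels was not tested.

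The rest of the pathway was followed with 52 further genes, of which 47 passed the count filter. None was called in any of the 6 comparisons by DESeq2, nor by edgeR. Against ctrl, 3 genes had an unadjusted p under 0.05 with miR-142-5p, 4 with miR-183-5p EVs and 0 with miR-222-3p EVs. Comparing miR-183-5p with the miR-142-5p group gave 3 genes, comparing it with the miR-222-3p group gave 1, and comparing the latter with the miR-142-5p group gave 3. These are 6.38%, 8.51%, 0%, 6.38%, 2.13% and 6.38% of the 47, beside 3.56%, 3.22%, 2.29%, 7.95%, 3.24% and 3.59% of all genes. In the same order, the groups did not overlap by normalised count for 3, 6, 0, 3, 3 and 2 of the 47 genes. That is 6.38%, 12.8%, 0%, 6.38%, 6.38% and 4.26%, beside 6.07%, 9.17%, 5.5%, 12.3%, 9.06% and 6.2% of all genes.

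In the nitric oxide branch, which also holds the genes for the cofactor tetrahydrobiopterin (Gch1, Pts, Spr, Qdpr), the highest was Ddah2 at 66.8 to 101 TPM and the lowest the neuronal synthase Nos1 at 0.0626 to 0.205 TPM. The endothelial synthase Nos3 was at 3.60 to 5.86 TPM, below Nos2 in each tumour. Ddah1 was 4.94, 6.70 and 5.93 TPM in ctrl, 6.80, 3.27 and 5.02 TPM with miR-142-5p, 10.8, 7.27 and 13.9 TPM with miR-183-5p EVs and 3.73, 6.68 and 11.9 TPM in miR-222-3p. It was higher in each miR-183-5p tumour than in each ctrl or miR-142-5p tumour. Its log2 fold change was 0.89 (SE 0.39, unadjusted p = 0.0232, adjusted p = 0.9998, DESeq2) against ctrl and 1.08 (SE 0.39, unadjusted p = 0.00592, adjusted p = 0.316, DESeq2) against miR-142-5p. The latter was called without miR-142-5p tumour 1 (1.42, DESeq2 adjusted p = 0.0277), the highest of its group in Ddah1. The share of all genes called in that fit was not computed.

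Transcripts of the hepatic steps of the urea cycle were at or near 0. Cps1, which opens that cycle, had 0 estimated reads in all 12 libraries, where 0 allows up to 3 reads per library, and Otc, which makes citrulline from ornithine, had at most 1 read. Nags, the enzyme that makes the activator of Cps1, and the carrier Slc25a2 had at most 10 reads each and were not tested. Only the mitochondrial carriers Slc25a15 (2.71 to 4.25 TPM) and Slc25a29 (4.49 to 8.57 TPM) were tested, and neither had an unadjusted p under 0.05.

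The polyamine branch held the most abundant partners. Eif5a, the protein that carries the spermidine-derived hypusine, was at 555 to 912 TPM, the antizyme Oaz1 at 522 to 676 TPM and the acetyltransferase Sat1 at 282 to 454 TPM, whereas Agmat was lowest with at most 4 reads. Smox, which oxidises spermine back to spermidine, was 139, 143 and 144 TPM in ctrl, 189, 127 and 123 TPM with miR-142-5p, 208, 187 and 213 TPM with miR-183-5p EVs and 132, 133 and 198 TPM in miR-222-3p. It was higher in miR-183-5p than in ctrl without overlap (0.53, SE 0.23, unadjusted p = 0.0185, adjusted p = 0.9998, DESeq2). It passed with only these 2 groups in the fit (0.54, DESeq2 adjusted p = 0.0145) and, against miR-142-5p, without miR-142-5p tumour 1 (0.75, DESeq2 adjusted p = 0.0145), the highest of its group in Smox. How many of all genes passed in those fits was not computed. Sms, spermine synthase, was higher in miR-183-5p than in miR-222-3p by 0.31 (SE 0.16, unadjusted p = 0.0454, DESeq2) with overlap.

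In the proline and creatine branch, Gatm, which joins arginine to glycine in the first step of creatine synthesis, was highest. It was 79.2, 77.4 and 79.6 TPM in ctrl and 58.4, 64.1 and 50.8 TPM in miR-183-5p, with 93.1, 82.6 and 60.3 TPM in miR-142-5p and 77.6, 92.5 and 56.3 TPM in miR-222-3p. The miR-183-5p tumours were below ctrl without overlap (-0.43, SE 0.21, unadjusted p = 0.0462, adjusted p = 0.9998, DESeq2). Pycr1, a pyrroline-5-carboxylate reductase, was lowest on average at 2.64 to 5.56 TPM.

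**Figure D5:**
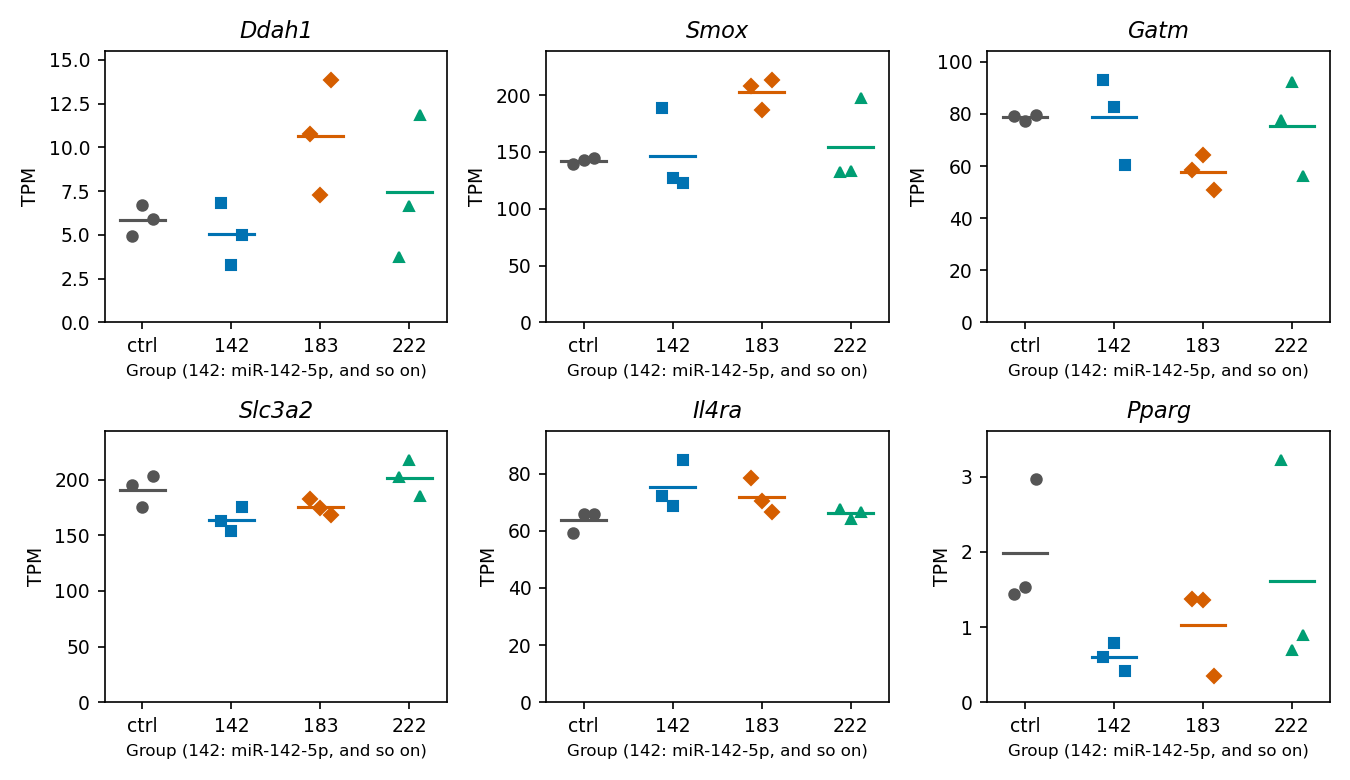
TPM of 6 partner genes with an unadjusted p under 0.05 in at least 1 comparison against ctrl, by tumour (symbols) with group means (lines). In miR-183-5p, Ddah1 (7.27 to 13.9 TPM) and Smox (187 to 213 TPM) lie above ctrl and Gatm (50.8 to 64.1 TPM) below, and none of the 6 genes passed after adjustment.

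Among the transport genes, Slc3a2, the heavy chain shared by several amino acid exchangers, was highest at 153 to 218 TPM and Slc7a3 lowest at 1.13 to 2.74 TPM. Slc3a2 was 195, 175 and 203 TPM in ctrl and 163, 153 and 175 TPM in miR-142-5p, a log2 fold change of -0.21 (SE 0.11, unadjusted p = 0.0485, adjusted p = 1, DESeq2). Against miR-222-3p (203, 218 and 185 TPM) it was lower without overlap, by -0.28 on the log2 scale (SE 0.11, unadjusted p = 0.00854, adjusted p = 0.960, DESeq2).

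Of the regulators of Arg1 and Nos2, the nuclear receptor Pparg had the lowest mean level. Il4ra, the receptor chain through which interleukin-4 and interleukin-13 induce Arg1, was 59.2, 65.9 and 66.0 TPM in ctrl, 72.05, 68.7 and 84.9 TPM in miR-142-5p and 78.3, 70.6 and 66.5 TPM in miR-183-5p, with 67.7, 64.0 and 66.6 TPM in miR-222-3p. Both former groups were above ctrl without overlap, by 0.25 (SE 0.09, unadjusted p = 0.00842, DESeq2) and 0.20 (SE 0.09, unadjusted p = 0.0381, DESeq2), and neither passed after adjustment. Pparg was 1.44, 1.54 and 2.97 TPM in ctrl and 0.603, 0.787 and 0.416 TPM in miR-142-5p, lower without overlap (-1.68, SE 0.65, unadjusted p = 0.00972, adjusted p = 1, DESeq2), on 9 to 62 reads per library over the series. Stat6, which carries the interleukin-4 signal, was at 90.8 to 123 TPM and did not reach an unadjusted p of 0.05 in any of the 6 comparisons. Stat6 was below ctrl without overlap in the miR-142-5p (-0.11, SE 0.09) and miR-183-5p tumours (-0.10, SE 0.09), and Pparg was also below ctrl without overlap in the latter (-0.90, SE 0.63, unadjusted p = 0.156, DESeq2). Both genes are among those counted above beside the share of all genes without overlap.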

How the data were processed

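Polyadenylated RNA of 12 tumours (4 groups of 3, from the labels) was sequenced from Illumina TruSeq Stranded mRNA libraries. The authors quantified reads with Salmon, and the deposited tables hold an expected count of reads and a TPM value per transcript, not pooled. The methods and the tables name different Ensembl releases, so transcripts were matched without version to GENCODE M21 on GRCm38 (116710 of 118783, 98.3%). Expected counts were summed per gene, rounded, and tested with DESeq2 1.42.0 (Wald test, group as only factor, tximport-style length offset) over the 15459 genes that reached 10 reads in 3 or more libraries. TPM values were summed per gene. Counts of the 12 same-group library pairs gave a chi-square of 13.6 to 58.9 per degree of freedom, so no library was a copy of another in its group. Pairs between groups were not compared in this way. Reads are not independent molecules, and precision from depth covers counting error only.

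The text names the 10 members, partner genes with an unadjusted p under 0.05 or the highest or lowest TPM of their branch (Nos3, Stat6, Oaz1, Sat1 and genes at or near 0 reads were named after their values were seen), the 5 genes most like Arg1 and Nos2, and cell type markers. A gene that this rule would name is not reported here. Members and lists were chosen with earlier results of these data known. Correlations used 100000 permutations of the tumours, without regard to group. Sites were described with 3′ UTRs of GENCODE M21 and copies with BLAST 2.17.0. Scripts that test many genes were first tested on simulated data. Alternatives were edgeR 4.0.16, TMM factors, no count filter, at least 50 reads in every library, protein-coding genes only, no length offset, 2 groups only, a replicate block, omission of each tumour in turn, omission of miR-142-5p tumour 3 with miR-183-5p tumour 3 (added after seeing the data), a threshold of 0.1, counts summed with copies and coding transcripts only. Analyses used R 4.3.3 and Python 3.11.15.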

Additional observations from a re-analysis of the deposited data

Results flagged for a closer look

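A pair of genes moved in opposite directions from the ctrl mean in every tumour of 2 groups. For Odc1, the 3 miR-142-5p tumours were below the ctrl mean normalised count (group mean difference -768) and the 3 miR-183-5p tumours above it (1524). The direct comparison of these groups had an unadjusted p of 0.00423 and an adjusted p of 0.271 (DESeq2). For Prodh, the proline dehydrogenase, the 3 miR-183-5p tumours were below the ctrl mean (-16.4) and the 3 miR-222-3p tumours above it (13.5), with an adjusted p of 0.9996 between these groups (DESeq2). Both differences are set against the same 3 ctrl tumours, and groups of 3 were not searched for single outlying tumours. In TPM the pattern did not hold for Odc1, with miR-183-5p tumour 2 at 199.6 and a ctrl mean of 203.8. Nor did it hold in TPM for Prodh, where miR-222-3p tumour 3, at 8.72 TPM, was below the mean of the ctrl tumours (8.99, 8.47 and 9.37 TPM).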

How the results depend on the processing

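The number of members called was 0 in each of the 6 comparisons, and 0 under each alternative except 2, which also called partner genes. With only the 2 groups compared, 1 member (Nos2) and 1 partner gene (Smox) were called for miR-183-5p against ctrl. Between the miR-183-5p and miR-142-5p groups, the fits that left out 1 tumour called 0 to 1 members and 0 to 2 partner genes. These calls were made without miR-142-5p tumour 1, the highest of its group in Nos2, Smox and Ddah1. How many of all genes were called in these alternative fits was not computed, so the calls cannot be set against that share. With the replicate number as a block, 0 members and 0 partner genes were called in each comparison, and the numbers gave no sign of pairing (mean residual correlation -0.0449 for the same number, 0.0223 for different numbers), so the block changed no call. Of 60 member changes, 23 turned sign when 1 tumour was left out, the largest of them 0.41 in size, and 4 turned under settings that kept all tumours, none above 0.0727. Without 1 tumour, the change against ctrl ranged from -0.038 to 0.67 for Arg1 and from -0.42 to 0.31 for Slc7a2 in miR-142-5p, from -0.0050 to 0.23 for Arg1 in miR-183-5p and from -0.25 to 0.34 for Nos2 in miR-222-3p. The difference in log2 Arg1 to Nos2 ratio moved by less than 1 SD under the alternatives run.

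The correlations kept their sign but not always their adjusted p. Without the 2 farthest tumours r was 0.75 (Nos2 and Ass1), 0.70 (Nos2 and Odc1) and -0.82 (Asl and Slc7a1). In the larger library set it was 0.83, 0.87 and -0.79, and without the libraries with B cell and muscle markers, chosen after seeing the data, 0.80, 0.86 and -0.80, where the adjusted p was above 0.05 in each, with fewer tumours. On log2(TPM + 1), r was 0.72 for Nos2 and Odc1 and -0.14 for Asl and Slc7a1, and centred on group means it was 0.61 for Nos2 and Odc1, none passing. Leaving out 1 tumour gave 0.80 to 0.87 for Nos2 and Ass1, 0.71 to 0.86 for Nos2 and Odc1 and -0.86 to -0.75 for Asl and Slc7a1. The cause of these changes was not tested.

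Depth was not a limit for the 10 genes, whose lowest count was 157 reads, but was for Pparg, Otc, Nags and Slc25a2. With 3 tumours a group, the widest 95% interval, that of Nos2, spanned more than 2 log2 units, which limits what the fit over all groups could call.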
